A study of Mus musculus with 9 samples.

Results

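Transcript levels of 41 genes of the lysosome and of autophagy were examined in cells recovered from mouse tumours. The genes were chosen by name as V-ATPase subunits, lysosomal membrane proteins, soluble lysosomal proteins other than cathepsins, and autophagy factors, and all 41 are among the 25361 genes of the count table. Of these 41, 40 had at least 30 counts over the 9 libraries and 39 passed the expression filter and were tested. The libraries fall into 3 groups of 3, described as independent biological replicates, from wild-type male C57BL/6N mice carrying MC38 tumours, a colon carcinoma line grown under the skin. The aged restricted mice were 20 months old and were given 70% of the intake of freely fed mice, the aged ad libitum mice were 20 months old and fed freely, and the young mice were 5 months old and fed freely. Tumours were taken 21 days after injection, and cells were drawn with CD8a magnetic beads after enzymatic digestion and lysis of red blood cells. The labels do not say whether a library came from 1 mouse or a pool, nor at what age the restriction began.

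The lysosome is an acidic organelle that breaks down material delivered by endocytosis, phagocytosis and autophagy. The V-ATPase acidifies it: its membrane-embedded V0 sector carries protons through a rotating ring, and its cytosolic V1 sector turns that ring by hydrolysing ATP. Heavily glycosylated membrane proteins such as LAMP1 and LAMP2 line the organelle, soluble hydrolases and their helpers fill it, and autophagosomes, marked by lipidated LC3 and GABARAP proteins, fuse with it. The transcription factor TFEB binds E-box-type elements, called CLEAR elements, near the start of many of these genes. Macrophages are known for abundant lysosomes, and cytotoxic T cells for lysosome-related granules.

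Promoter windows, from 250 bases before to 50 bases after the annotated start, were taken from the RefSeq table for GRCm38.p6, which held 33 of the 41 genes. The core of the CLEAR element, TCACGTGA, was present in windows of 4 of the 33 genes (12.1%), Atp6v0d1, Atp6v0e, Atp6v1a and Mcoln1, and in windows of 1.12% of the 27025 genes of the table. The shorter E-box CACGTG, which lies within that core, was present in 8 genes (24.2%), the same 4 and Atp6v0b, Lamp1, Atg5 and Atg7, against 8.09% of all genes. Of 107 other genes of the same pathways, outside the 41, 10.3% held the core and 23.4% the E-box, so these shares were not particular to the list. Both motifs read the same on either strand. None of the 7 genes of soluble lysosomal proteins held either motif in this window, and 2 of 5 genes of the V0 sector held the core. 3 windows are shown because these genes recur in the results: Lamp1 and Grn passed the test between the aged groups, with and without an E-box, and Atp6v0e holds the full core. The Lamp1 window is chr8:13158911-13159210, the Grn window chr11:102430257-102430556 and the Atp6v0e window chr17:26676146-26676445, all on the plus strand. Capitals mark the E-boxes of Lamp1 and the core of Atp6v0e, and Grn has no capitals.
Lamp1: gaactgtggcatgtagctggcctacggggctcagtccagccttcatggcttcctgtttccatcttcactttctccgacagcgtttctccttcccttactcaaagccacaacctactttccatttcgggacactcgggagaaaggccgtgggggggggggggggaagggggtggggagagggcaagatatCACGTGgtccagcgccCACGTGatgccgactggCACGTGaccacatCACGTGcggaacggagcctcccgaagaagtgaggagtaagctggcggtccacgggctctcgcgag
Grn: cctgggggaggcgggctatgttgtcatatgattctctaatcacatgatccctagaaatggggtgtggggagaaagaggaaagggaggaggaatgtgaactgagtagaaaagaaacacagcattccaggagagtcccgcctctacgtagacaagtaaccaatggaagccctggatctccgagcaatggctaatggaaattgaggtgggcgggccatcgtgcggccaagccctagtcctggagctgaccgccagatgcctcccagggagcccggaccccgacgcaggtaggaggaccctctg
Atp6v0e: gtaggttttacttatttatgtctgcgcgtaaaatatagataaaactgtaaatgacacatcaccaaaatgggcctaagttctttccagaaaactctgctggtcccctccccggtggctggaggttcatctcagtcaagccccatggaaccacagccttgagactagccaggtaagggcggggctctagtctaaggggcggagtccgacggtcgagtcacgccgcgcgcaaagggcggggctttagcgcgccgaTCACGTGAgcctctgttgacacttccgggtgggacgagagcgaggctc
In Lamp1 the 4 E-boxes began 61, 45, 28 and 15 bases upstream of the start, and in Atp6v0e the core began at base 3 of the transcript. These matches describe letters in the windows and were not read as binding.

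Levels are given as CPM, read counts divided by the library's total over tested genes, put on a per-1000000 scale with TMM factors, which correct for libraries dominated by a few genes. The library kit reads the 3′ end of transcripts, so a count does not grow with transcript length and levels are set side by side between genes without a length correction. Libraries held 810662 to 1258575 counts, of which 23.5% to 45.7% came from mitochondrially encoded genes. Depth differed by group: aged ad libitum libraries held 908514, 818450 and 810662 counts, and every other library held at least 1091933. Aged ad libitum replicate 2 had the fewest counts outside mitochondrially encoded genes, 471293, with 42.4% from those genes. The part of depth in the differences was not tested. The 41 genes took 0.790% ± 0.034 of all counts in aged restricted, 0.580% ± 0.154 in aged ad libitum and 0.737% ± 0.037 in young libraries (SD, n = 3 each). The bead label was checked against 13 CD8 T cell markers and 13 monocyte and macrophage markers, all of which had counts. The T cell markers summed to 435 ± 183 CPM (236 to 593) in aged restricted, 280 ± 149 CPM (154 to 445) in aged ad libitum and 170.2 ± 115 CPM (66.8 to 294) in young libraries. The macrophage markers summed to 4619 ± 922 CPM (3901 to 5659) in aged restricted, 2056 ± 884 CPM (1150.5 to 2918) in aged ad libitum and 2231 ± 145 CPM (2082 to 2372) in young libraries. In all 9 libraries the macrophage transcripts outweighed those of T cells. Every value below is therefore a level in a mixed sample, in which fewer cells of a type and less RNA per cell cannot be told apart.

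Aged restricted against aged ad libitum asks what reduced intake does at the same age. 4 of the 39 tested genes rose in restricted libraries, Grn, Lamp1, Npc2 and Man2b1, and 0 fell. Over all 9009 tested genes, 0.688% rose and 0.255% fell by the same rule, edgeR's quasi-likelihood test with a Benjamini-Hochberg adjusted p under 0.05. 30 of the 39 had a higher fitted level in restricted libraries and 9 a lower one, with a median log2 fold change of 0.52, beside 0.0004 over all tested genes. At an unadjusted p under 0.05, 13 were higher and 0 lower, beside 6.29% and 5.45% of all tested genes. DESeq2 also called 4 higher and 0 lower, beside 101 higher and 58 lower over all genes. All 3 restricted libraries lay above all 3 ad libitum libraries for 9 of the 39, and below them for 1, Atp6v0a1, beside 9.26% and 8.47% of all tested genes.

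Soluble lysosomal proteins held 3 of the 4 genes that rose, and all 7 tested genes of this role had a higher fitted level in restricted libraries, with a median log2 fold change of 0.92. Grn (ENSMUSG00000034708) encodes progranulin, a secreted protein that is sorted to lysosomes and cut there into granulins. It had 389.7, 299 and 568 CPM in aged restricted libraries, against 200.4, 123 and 179.5 CPM in aged ad libitum libraries. The 2 groups did not overlap, and the restricted library with the lowest level was still above the highest ad libitum library. The mean was 419 ± 137 CPM in restricted and 168 ± 39.8 CPM in ad libitum libraries (SD, n = 3 each), a fitted 2.49-fold difference (log2 1.32 ± 0.24 SE, edgeR adjusted p = 0.0049).

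Man2b1 (ENSMUSG00000005142) encodes the lysosomal α-mannosidase, which trims mannose from glycoproteins. It had 203, 109 and 153 CPM in restricted libraries, against 68.2, 69.7 and 73.8 CPM in aged ad libitum libraries. The ad libitum libraries lay close together and the restricted ones were spread, with no overlap. Its fitted difference was 2.18-fold (log2 1.13 ± 0.28 SE, edgeR adjusted p = 0.0484). Npc2 (ENSMUSG00000021242) encodes the cholesterol carrier that hands cholesterol to NPC1 inside the lysosome. It had 617, 373 and 547 CPM in restricted libraries, against 383, 205 and 211 CPM in aged ad libitum libraries. Here the groups overlapped, since restricted replicate 2 lay under aged ad libitum replicate 1. The fitted difference was 1.92-fold (log2 0.94 ± 0.23 SE, edgeR adjusted p = 0.0481).

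**Figure D1:**
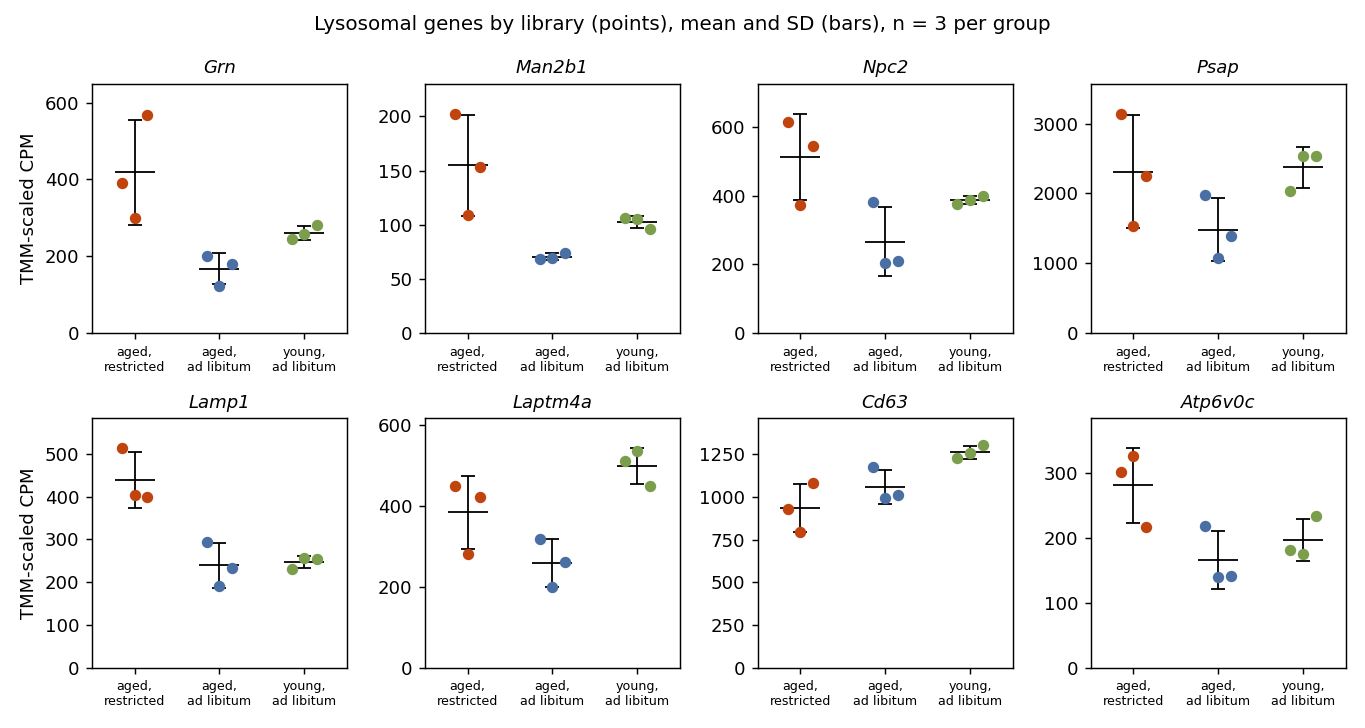
TMM-scaled CPM (vertical axes, starting at 0) of 8 lysosomal genes in each library (points) with group mean and SD (bars, n = 3 per group). The restricted points of Grn, Man2b1 and Lamp1 lie above all aged ad libitum points, those of Npc2, Psap, Laptm4a and Atp6v0c overlap them, and Cd63 is highest in young libraries.

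Psap, which encodes prosaposin, the precursor of the saposins that help hydrolases act on sphingolipids, was the most abundant gene of the list. It had 3142, 1528 and 2255 CPM in restricted libraries, against 1971, 1081 and 1394 CPM in aged ad libitum libraries. The groups overlapped, and the 1.56-fold difference did not pass the test (log2 0.64 ± 0.24 SE, edgeR adjusted p = 0.307). Psap made up 28.3% of the summed CPM of the 41 genes in restricted, 25.4% in aged ad libitum and 31.4% in young libraries. The other soluble proteins were lower in level: Hexa, a subunit of β-hexosaminidase, averaged 75.3 ± 24.3 CPM in restricted and 39.9 ± 19.3 CPM in aged ad libitum libraries. Gusb, the lysosomal β-glucuronidase, averaged 52.3 ± 21.9 CPM in restricted and 30.1 ± 4.49 CPM in aged ad libitum libraries. Lipa, the acid lipase of lysosomes, averaged 45.1 ± 14.7 CPM in restricted and 23.3 ± 16.8 CPM in aged ad libitum libraries (SD, n = 3 each). None of these 3 passed the test, with edgeR adjusted p from 0.325 to 0.522.

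Of 7 genes for lysosomal membrane proteins, 1 rose and 6 had a higher fitted level in restricted libraries, with a median log2 fold change of 0.56. Lamp1 (ENSMUSG00000031447), the glycoprotein that lines the lysosomal membrane and appears on the surface of T cells that have released their granules, had 514, 403 and 398 CPM in restricted libraries, against 294, 190.4 and 234 CPM in aged ad libitum libraries. No restricted library overlapped with an ad libitum one. The fitted difference was 1.83-fold (log2 0.87 ± 0.22 SE, edgeR adjusted p = 0.0457). Its paralogue Lamp2 averaged 145 ± 49.8 CPM in restricted and 102 ± 22.3 CPM in aged ad libitum libraries, with overlap and an edgeR adjusted p of 0.523. Laptm5, a transmembrane protein of blood cells, averaged 321 ± 60.2 CPM in restricted and 187 ± 101 CPM in aged ad libitum libraries (edgeR adjusted p = 0.285). Laptm4a, its relative found in many tissues, had 451, 282 and 422 CPM in restricted libraries, against 319, 199.8 and 261 CPM in aged ad libitum libraries (edgeR adjusted p = 0.286).

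Cd63, a tetraspanin of late endosomes and exosomes, was the exception to the higher levels of this role. It had 932, 795 and 1081 CPM in restricted libraries, against 1175, 992 and 1013 CPM in aged ad libitum libraries, a fitted log2 difference of -0.18 ± 0.16 SE (edgeR adjusted p = 0.737). Npc1, the membrane partner of NPC2 in cholesterol export, averaged 42.0 ± 12.6 CPM in restricted and 26.0 ± 0.714 CPM in aged ad libitum libraries, without overlap but with an edgeR adjusted p of 0.617. Mcoln1, a lysosomal calcium channel, was near its counting limit, with 7.11 to 22.1 CPM in restricted and 2.03 to 20.9 CPM in aged ad libitum libraries.

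No V-ATPase gene passed the test between the aged groups. In the V0 sector 4 of 5 tested genes had a higher fitted level in restricted libraries, with a median log2 fold change of 0.70, and in the V1 sector 6 of 8, with a median of 0.15. Atp6v0c, the proteolipid that forms most of the proton-carrying ring, was the most abundant, with 301, 325 and 216 CPM in restricted libraries, against 218, 139 and 141 CPM in aged ad libitum libraries. The groups touched at restricted replicate 3, and the 1.69-fold difference had an edgeR adjusted p of 0.163. Atp6v0e, the small e subunit whose promoter window holds the CLEAR core, had 66.4, 87.9 and 79.2 CPM in restricted libraries, against 38.7, 48.3 and 33.2 CPM in aged ad libitum libraries. Its groups were separate, and the 1.95-fold difference had an edgeR adjusted p of 0.214. Atp6v0a1, the a1 subunit through which protons pass, ran the other way with 17.7 to 21.0 CPM in restricted and 25.5 to 30.5 CPM in aged ad libitum libraries (edgeR adjusted p = 0.762).

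In the V1 sector the fitted log2 differences were between -0.16 for Atp6v1g1, part of the stator, and 0.84 for Atp6v1b2, a nucleotide-binding subunit. Atp6v1f, a subunit of the central stalk and the most abundant of the sector, had 145, 155 and 211 CPM in restricted libraries, against 152, 117 and 127 CPM in aged ad libitum libraries (edgeR adjusted p = 0.606). Atp6v1d, the rotor subunit beside it, had 57.6, 62.3 and 72.9 CPM in restricted libraries, against 33.6, 80.5 and 60.2 CPM in aged ad libitum libraries. The groups overlapped for both genes, though restricted replicates 2 and 3 of Atp6v1f lay above all aged ad libitum libraries. Among the accessory subunits, Atp6ap2, also known as the prorenin receptor, had 77.5, 71.5 and 55.1 CPM in restricted libraries, against 57.0, 16.1 and 22.1 CPM in aged ad libitum libraries (2.1-fold, edgeR adjusted p = 0.286). Atp6ap1, which helps to assemble the pump, had 133, 123 and 150.3 CPM in restricted and 143, 103 and 114 CPM in aged ad libitum libraries (edgeR adjusted p = 0.879).

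Atp6v0d2, a form of the d subunit known from osteoclasts and macrophages, was too low to test, with 17 counts in all. Its counts were 6, 1 and 8 in restricted, 2, 0 and 0 in aged ad libitum and 0, 0 and 0 in young libraries. A count of 0 over the young group allows up to 0.838 CPM, taking 3 counts as the floor.

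Autophagy genes were split evenly: 5 of 10 had a higher and 5 a lower fitted level in restricted libraries, with a median log2 fold change of 0.14 and none past the test. Sqstm1, the p62 receptor that carries ubiquitinated cargo into autophagosomes, was the most abundant, with 302, 415 and 284 CPM in restricted libraries, against 358, 283 and 389 CPM in aged ad libitum libraries. The 2 ranges overlapped almost completely (log2 -0.04 ± 0.21 SE, edgeR adjusted p = 0.968). Map1lc3a, an LC3 form, had 79.7, 53.8 and 59.6 CPM in restricted libraries, against 79.4, 80.5 and 72.5 CPM in aged ad libitum libraries (edgeR adjusted p = 0.806). The related Map1lc3b averaged 112 ± 18.8 CPM in restricted and 74.5 ± 11.3 CPM in aged ad libitum libraries. Gabarap averaged 158 ± 13.9 CPM in restricted and 116 ± 29.2 CPM in aged ad libitum libraries. These last 2 had all restricted libraries above all ad libitum ones, and edgeR adjusted p of 0.425 and 0.527.

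Ulk1, the kinase that starts autophagosome formation, had the largest fitted difference of the 39 genes and one of the lowest levels. It had 16.6, 4.59 and 30.2 CPM in restricted libraries, against 3.05, 1.34 and 1.23 CPM in aged ad libitum libraries, from 97 counts over the 9 libraries. The groups were separate, but the log2 difference of 3.07 carried an SE of 1.06 and an edgeR adjusted p of 0.204. Becn1, Wipi2 and Atg7, which act in nucleation, in reading the lipid mark of the growing membrane and in LC3 conjugation, had lower fitted levels in restricted libraries, by -0.32 ± 0.40, -0.41 ± 0.47 and -0.48 ± 0.74 (log2 ± SE). Atg5, of the conjugation machinery, and Gabarapl1 had higher ones, by 0.55 ± 0.58 and 0.31 ± 0.37. Each of these differences lay within 1 SE of 0, and none passed the test.

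Tfeb itself, with 46 counts, did not pass the expression filter. It had 2.21, 6.56 and 5.34 CPM in restricted, 3.05, 1.34 and 3.69 CPM in aged ad libitum and 0.827, 6.44 and 10.6 CPM in young libraries. All 3 groups overlapped, and in a fit that kept every gene with at least 30 counts its edgeR adjusted p was 0.906 between the aged groups. No difference in Tfeb was detected between the aged groups. Its log2 difference of 0.80 carried an SE of 1.37, which limits what could be detected at this depth.

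**Figure D2:**
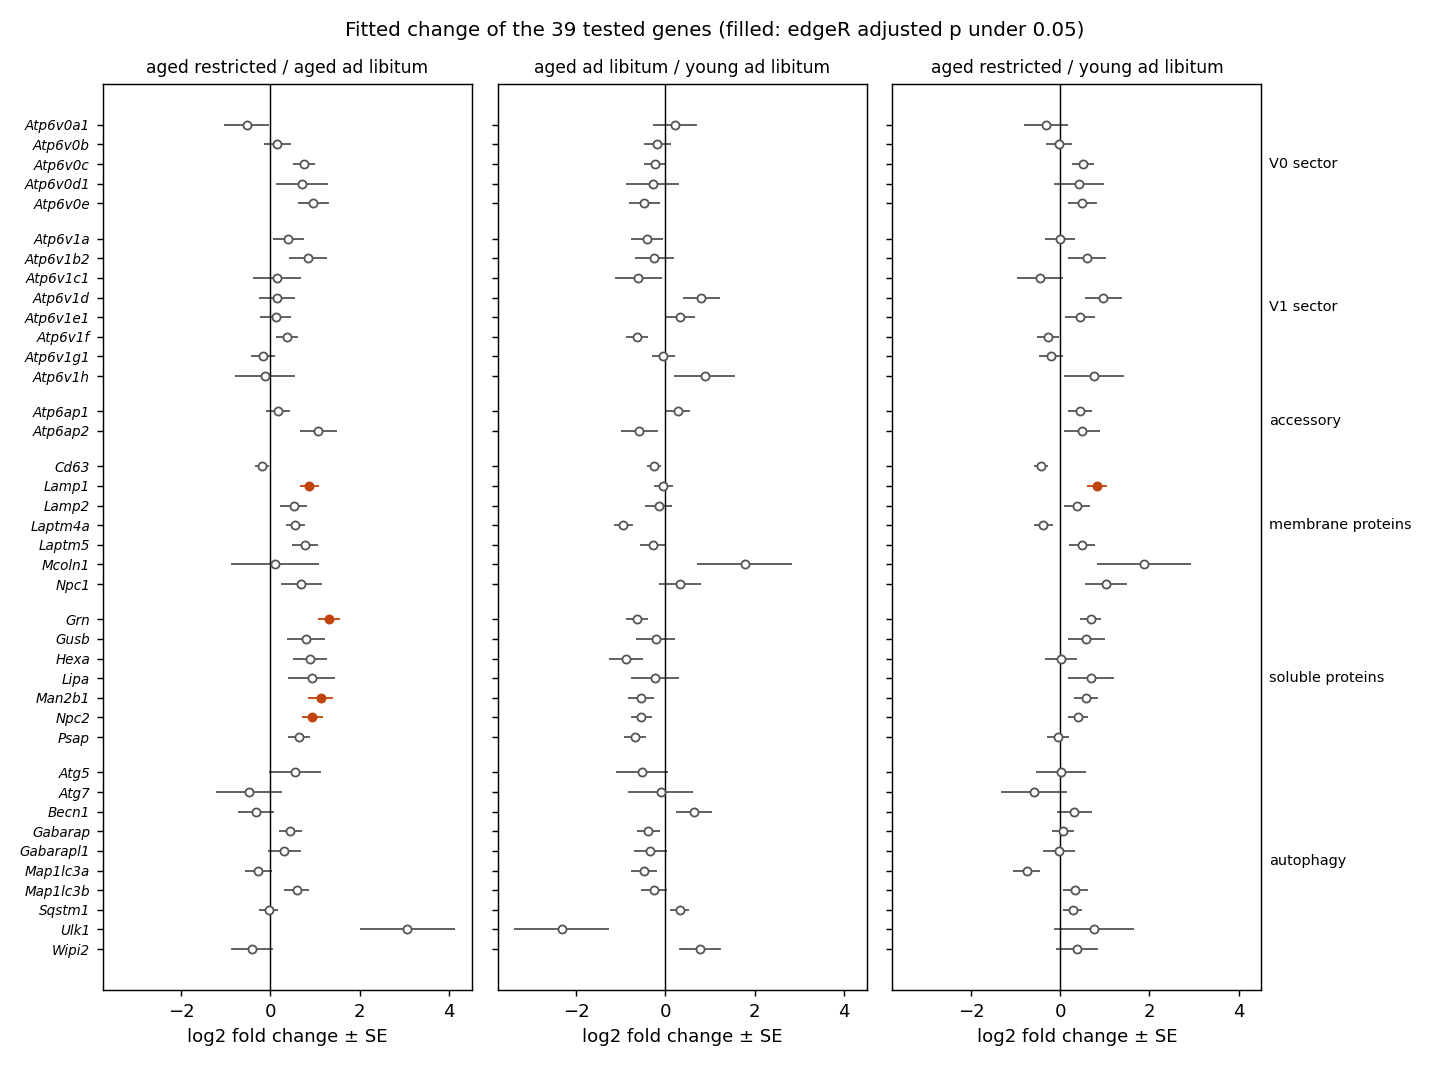
Fitted log2 fold change (horizontal axes, points, with SE as bars) of the 39 tested genes, grouped by role, in the 3 comparisons; filled points passed edgeR's adjusted p of 0.05. Filled points are Grn, Npc2, Man2b1 and Lamp1 in the comparison of the aged groups and Lamp1 in restricted against young; the widest bars belong to Ulk1 and Mcoln1.

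The macrophage markers were compared between the aged groups in the same fit. All 13 had a higher fitted level in restricted than in aged ad libitum libraries, with a median log2 fold change of 1.06, and 5 of the 13 rose. Of 11 tested T cell markers 9 had a higher fitted level in restricted libraries, with a median of 0.49, and 0 rose. Csf1r, the receptor that macrophages need for survival, averaged 415 ± 43.6 CPM in restricted and 227 ± 29.7 CPM in aged ad libitum libraries (SD, n = 3 each). Set against the summed macrophage markers, a measure chosen after the values were seen and described without a test, Grn had 9.26 ± 3.46 CPM per 100 marker CPM in restricted and 8.71 ± 1.93 in aged ad libitum libraries. By the same measure Lamp1 had 9.56 ± 0.671 CPM in restricted and 12.6 ± 3.47 in aged ad libitum libraries, and Npc2 had 11.1 ± 1.59 in restricted and 13.7 ± 3.91 in aged ad libitum libraries. Man2b1 had 3.31 ± 0.450 in restricted and 3.97 ± 1.90 in aged ad libitum libraries. Per marker CPM these 4 levels overlapped between the aged groups. Psap did not overlap by this measure and was lower in restricted libraries. It had 55.5, 39.2 and 52.5 CPM in restricted libraries, against 67.5, 93.9 and 66.4 CPM in aged ad libitum libraries. Summed markers of 3 other tissues, all of which had counts, were also higher in restricted libraries. Those of keratinocytes reached 247 ± 131 CPM in restricted and 59.2 ± 36.1 CPM in aged ad libitum libraries, those of skeletal muscle 105 ± 82.7 CPM in restricted and 11.3 ± 8.41 CPM in aged ad libitum libraries, and those of red blood cells 307 ± 167 CPM in restricted and 71.0 ± 22.6 CPM in aged ad libitum libraries. Neutrophil markers, with counts for all 6, summed to 77.1 ± 34.3 CPM in restricted and 27.0 ± 15.3 CPM in aged ad libitum libraries. Endothelial markers were lower, at 132 ± 70.0 CPM in restricted and 308 ± 113 CPM in aged ad libitum libraries. The part of these cells in the differences was not tested.

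**Figure D3:**
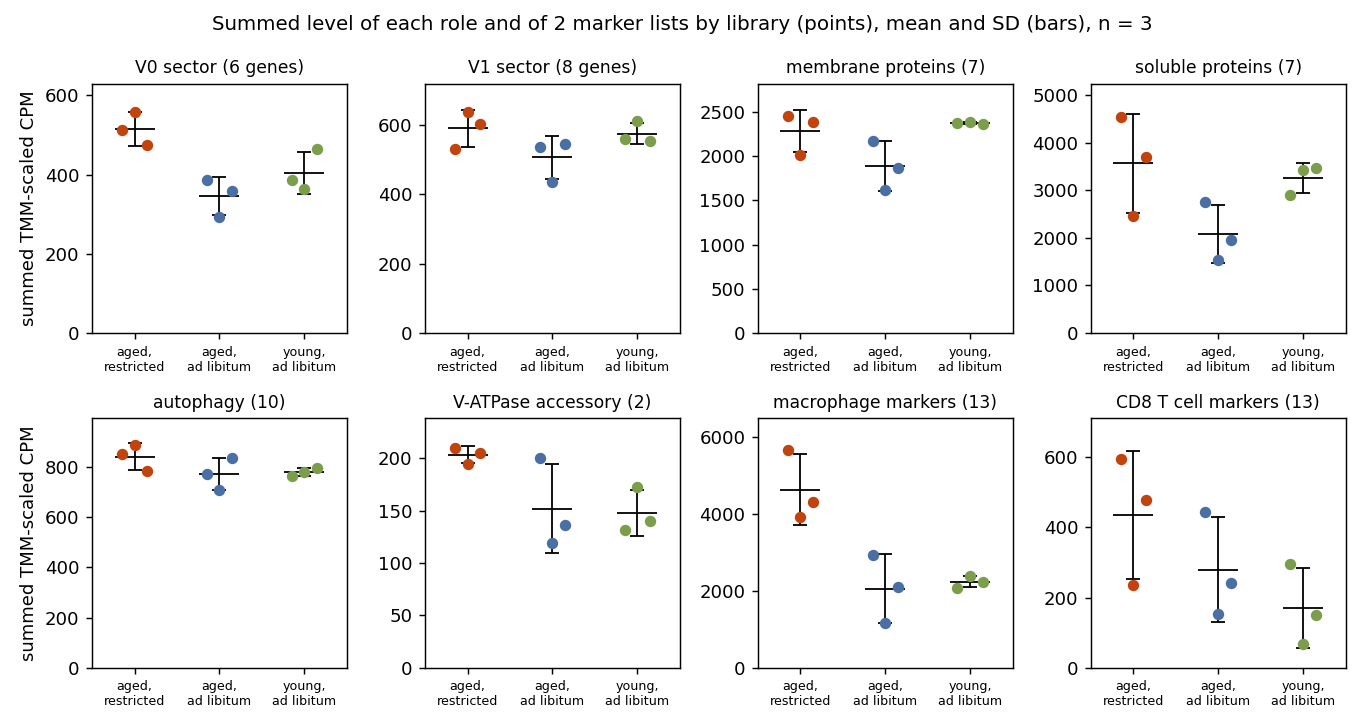
Summed TMM-scaled CPM (vertical axes, starting at 0) of each role and of the macrophage and CD8 T cell marker lists in each library (points), with mean and SD (bars, n = 3 per group). Restricted libraries lie above all aged ad libitum libraries for the V0 sector and the macrophage markers, while the sums of the V1 sector, autophagy, accessory, membrane and soluble genes overlap between the aged groups.

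The count of 4 depended on single libraries. It was 1 without any one of the 3 young libraries, of aged ad libitum replicates 2 and 3 or of restricted replicate 1. It was 0 without restricted replicate 3, where Grn reached an edgeR adjusted p of 0.0601. It was 6 without aged ad libitum replicate 1 and 5 without restricted replicate 2. Calls over all genes, 85 in the main fit, moved too. They were 80, 78 and 76 without young replicates 1, 2 and 3. Without aged ad libitum replicates 1, 2 and 3 they were 134, 35 and 48. Without restricted replicates 1, 2 and 3 they were 37, 157 and 56. Over 18 alternative settings Grn passed in 17, Lamp1 in 8, Npc2 in 7 and Man2b1 in 6, all with the same direction.

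Aged ad libitum against young asks what age does under free feeding. None of the 39 genes passed the test (0 of 39, beside 0.289% of all tested genes in either direction). At an unadjusted p under 0.05, 7 were lower and 0 higher in aged libraries, beside 4.77% and 5.58% of all tested genes. DESeq2 called 1, Laptm4a, lower, beside 34 lower and 57 higher over all genes. 29 of the 39 had a lower fitted level in aged libraries and 10 a higher one, with a median log2 fold change of -0.25, beside -0.0014 over all tested genes. All 3 aged libraries lay below all 3 young ones for 10 genes and above them for 3, beside 8.58% and 7.40% of all tested genes.

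Laptm4a came closest, with 319, 199.8 and 261 CPM in aged ad libitum libraries, against 511, 537 and 450.3 CPM in young libraries. The groups were far apart relative to their spread, at 0.521-fold (log2 -0.94 ± 0.22 SE), and the edgeR adjusted p was 0.0562. It passed in 9 of 18 alternative settings, among them the fits without aged ad libitum replicate 1, restricted replicate 1 or restricted replicate 2, with adjusted p between 0.0038 and 0.22 over all 18. The 7 soluble lysosomal proteins all had lower fitted levels in aged libraries, with a median log2 fold change of -0.54. Psap had 1971, 1081 and 1394 CPM in aged ad libitum libraries, against 2037, 2539 and 2542 CPM in young libraries, without overlap (0.625-fold, edgeR adjusted p = 0.321). Grn averaged 168 ± 39.8 CPM in aged ad libitum and 261 ± 18.1 CPM in young libraries (edgeR adjusted p = 0.317), and Hexa averaged 39.9 ± 19.3 CPM in aged ad libitum and 74.2 ± 12.1 CPM in young libraries (edgeR adjusted p = 0.388). Lamp1, in contrast, had nearly the same level, 239 ± 52.0 CPM in aged ad libitum and 247 ± 14.4 CPM in young libraries (log2 -0.04 ± 0.22 SE).

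Of the V-ATPase, Atp6v1f had 152, 117 and 127 CPM in aged ad libitum libraries, against 213, 205 and 197 CPM in young libraries, without overlap (edgeR adjusted p = 0.306). Atp6v1d ran the other way, with 33.6, 80.5 and 60.2 CPM in aged ad libitum libraries, against 28.1, 16.9 and 54.0 CPM in young libraries, and its groups overlapped. The 3 genes with every aged library above every young one were Atp6v1h, a regulatory V1 subunit, Becn1 and Wipi2, with log2 differences of 0.88 ± 0.68, 0.64 ± 0.40 and 0.78 ± 0.47 SE and edgeR adjusted p of 0.71, 0.623 and 0.608. These 3 were 7.69% of the 39 genes, near the 7.40% of all tested genes. Endothelial markers summed to 308 ± 113 CPM in aged ad libitum and 88.6 ± 26.5 CPM in young libraries, with 0 of 6 tested past the test. Red blood cell markers summed to 71.0 ± 22.6 CPM in aged ad libitum and 2.48 ± 4.30 CPM in young libraries (2 of 4 rose), and keratinocyte markers to 59.2 ± 36.1 CPM in aged ad libitum and 8.68 ± 2.16 CPM in young libraries (1 of 6 rose). Neutrophil markers summed to 27.0 ± 15.3 CPM in aged ad libitum and 4.73 ± 1.65 CPM in young libraries (1 of 2 rose). The part of these cells in the differences with age was not tested. The macrophage markers had summed levels that overlapped between aged ad libitum and young libraries, with 7 of 13 higher and none past the test. Of 11 tested T cell markers 9 were higher in aged ad libitum libraries, with a median log2 fold change of 0.84, and 0 rose. The part of macrophages and T cells was not tested either. Aged ad libitum replicate 2 had the lowest level of 16 of the 39 genes among all 9 libraries and also the lowest summed macrophage level, 1150.5 CPM.

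Aged restricted against young joins both differences and shares its libraries with the other comparisons, so its values are given side by side and not as separate evidence. 1 of the 39 genes, Lamp1, rose and 0 fell, beside 1.11% and 0.833% of all tested genes. Lamp1 averaged 438 ± 65.3 CPM in restricted and 247 ± 14.4 CPM in young libraries (SD, n = 3 each), a 1.77-fold difference (log2 0.83 ± 0.21 SE, edgeR adjusted p = 0.0376). The lowest restricted library, at 398 CPM, was above the highest young library, at 257 CPM. At an unadjusted p under 0.05, 6 genes were higher and 2 lower, beside 6.22% and 5.38% of all tested genes. DESeq2 called 1 higher and 0 lower, beside 143 higher and 90 lower over all genes. The median log2 fold change was 0.37, beside 0.02 over all tested genes, with 27 of the 39 higher. All 3 restricted libraries lay above all 3 young ones for 12 genes and below them for 2, beside 9.82% and 9.26% of all tested genes.

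Those 2 were Cd63 and Map1lc3a, a share of 5.13% that was under the 9.26% of all tested genes. Cd63 had 932, 795 and 1081 CPM in restricted libraries, against 1229, 1257 and 1303 CPM in young libraries (0.741-fold, edgeR adjusted p = 0.219). Map1lc3a had 79.7, 53.8 and 59.6 CPM in restricted libraries, against 87.6, 118 and 119 CPM in young libraries (0.594-fold, edgeR adjusted p = 0.269). For both genes the aged ad libitum libraries were on average between the other groups. Grn averaged 419 ± 137 CPM in restricted and 261 ± 18.1 CPM in young libraries, without overlap (1.6-fold, edgeR adjusted p = 0.187), whereas Psap averaged 2308 ± 809 CPM in restricted and 2373 ± 291 CPM in young libraries, with overlap (edgeR adjusted p = 0.982). Atp6v1d had 57.6, 62.3 and 72.9 CPM in restricted libraries, against 28.1, 16.9 and 54.0 CPM in young libraries, without overlap (1.95-fold, edgeR adjusted p = 0.334). Of the macrophage markers all 13 had a higher fitted level in restricted than in young libraries, with a median log2 fold change of 1.18, and 6 rose. The 11 tested T cell markers were all higher too, with a median of 1.49, and 0 rose. Per 100 CPM of the macrophage markers Lamp1 had 9.56 ± 0.671 CPM in restricted and 11.1 ± 0.256 CPM in young libraries. The part of macrophage or T cell RNA was not tested. Keratinocyte markers summed to 247 ± 131 CPM in restricted and 8.68 ± 2.16 CPM in young libraries, and red blood cell markers to 307 ± 167 CPM in restricted and 2.48 ± 4.30 CPM in young libraries. Skeletal muscle markers summed to 105 ± 82.7 CPM in restricted and 1.35 ± 1.67 CPM in young libraries, neutrophil markers summed to 77.1 ± 34.3 CPM in restricted and 4.73 ± 1.65 CPM in young libraries, and the part of these cells was not tested either. The Lamp1 call was lost without any one of the 3 young libraries, aged ad libitum replicate 3 or restricted replicates 1 and 3, with adjusted p of at most 0.245, and Grn was called as well without restricted replicate 2, giving 2 genes. Calls over all genes, 175 in the main fit, were 98 to 242 over the left-out libraries.

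**Figure D4:**
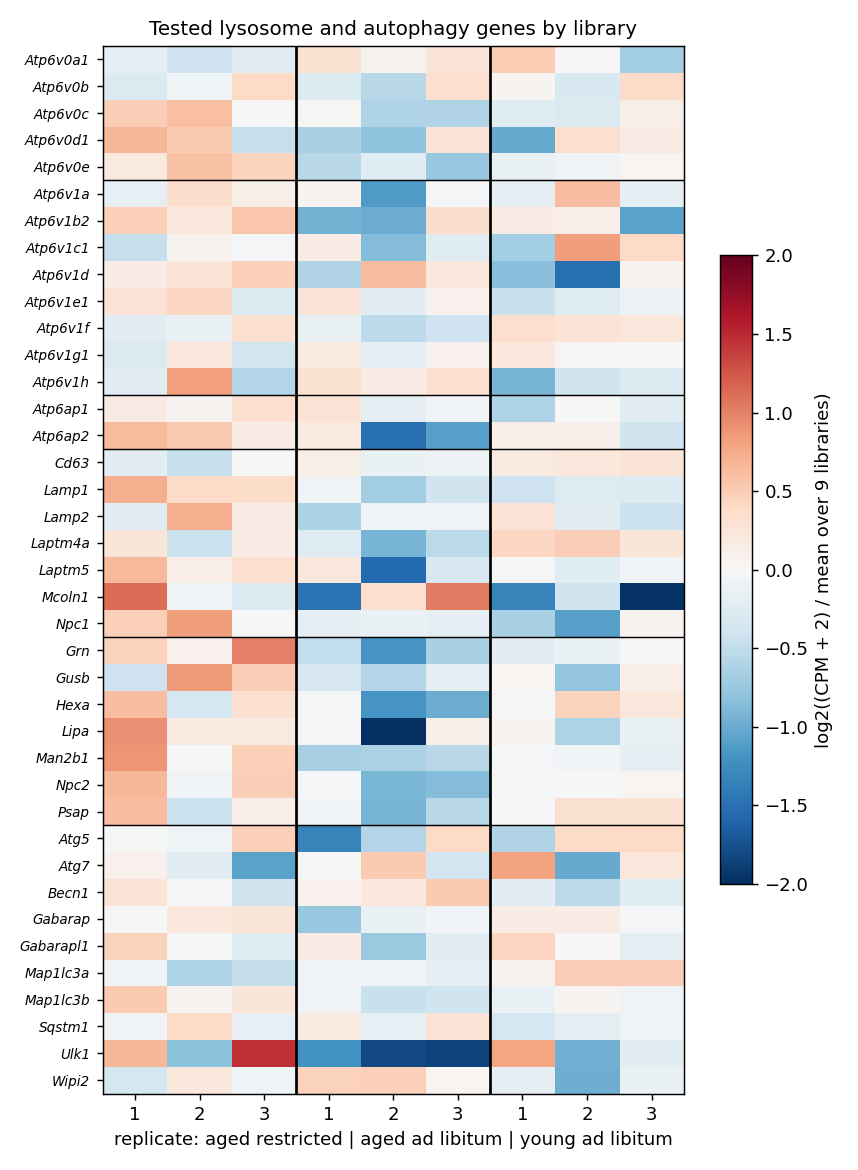
Each tested gene (rows, ordered by role) in each library (columns, replicates of the 3 groups), coloured by log2 of its CPM plus 2 over its mean in the 9 libraries. Blue is below and red above the gene's mean; aged ad libitum replicate 2 has the lowest level of 16 of the 39 genes, and restricted replicate 1 the highest level of 12.

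Seen over the libraries, the summed level of the 41 genes was 8003 ± 1175 CPM in restricted, 5746 ± 1054 CPM in aged ad libitum and 7548 ± 372 CPM in young libraries (SD, n = 3 each). Among the roles the soluble proteins had the highest sum, 3567 ± 1042 CPM in restricted, 2080 ± 614 CPM in aged ad libitum and 3261 ± 312 CPM in young libraries. The V0 sector summed to 515 ± 42.6 CPM in restricted, 346 ± 47.7 CPM in aged ad libitum and 405 ± 53.1 CPM in young libraries, and the autophagy genes to 842 ± 52.4 CPM in restricted, 773 ± 63.4 CPM in aged ad libitum and 780.2 ± 17.5 CPM in young libraries. Per 100 CPM of macrophage markers, all 41 genes together had 175 ± 14.5 CPM in restricted, 305 ± 92.6 CPM in aged ad libitum and 339 ± 11.5 CPM in young libraries. By that measure every restricted library lay below every library of the other groups. The measure was chosen after the values were seen. Its denominator, the marker sum, was itself 4619 ± 922 CPM in restricted, 2056 ± 884 CPM in aged ad libitum and 2231 ± 145 CPM in young libraries. In a mixed sample this ratio does not give lysosomal RNA per macrophage, which was not tested. The median coefficient of variation of a tested gene within a group was 23.9% in restricted, 23.8% in aged ad libitum and 20.0% in young libraries.

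A further 138 genes of the same pathways, not members of the list, were read in the same fit, and 117 were tested. Between restricted and aged ad libitum libraries 1 of 117 rose and 0 fell, near the 0.688% and 0.255% of all tested genes, with 87 of 117 higher and a median log2 fold change of 0.35. At an unadjusted p under 0.05, 12 were higher and 1 lower, beside 6.29% and 5.45% of all tested genes. The gene that rose was Lgmn, the asparaginyl endopeptidase of lysosomes, with 192, 167 and 249.9 CPM in restricted libraries, against 76.3, 59.0 and 91.0 CPM in aged ad libitum libraries. Every restricted library exceeded every ad libitum one (2.68-fold, edgeR adjusted p = 0.00748), and Lgmn rose over young libraries too, which had 68.6, 83.0 and 58.4 CPM (2.89-fold, edgeR adjusted p = 0.00177). The other soluble proteins and the membrane proteins outside the list had median log2 fold changes of 0.50 and 0.51 between the aged groups, and the 32 tested autophagy genes 0.19. The 6 tested V-ATPase genes outside the list had a median of -0.24, with 2 higher and 4 lower. Rraga, a GTPase that brings mTORC1 to the lysosomal surface, was the 1 gene of 117 past the test in aged ad libitum against young libraries, beside 0.289% of all tested genes, and it fell. It had 82.4, 60.3 and 50.4 CPM in aged ad libitum libraries, against 227, 141 and 203 CPM in young libraries (0.34-fold, edgeR adjusted p = 0.022). Restricted libraries, at 101, 42.6 and 60.5 CPM, were likewise lower than young ones (0.353-fold, edgeR adjusted p = 0.00675), and their range overlapped with that of aged ad libitum libraries.

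Some of these counts may include reads of near-identical copies, since how reads with several matches were counted is not given in the sources used here. In the last 400 bases of the transcript, Atp6v0c matched 2 processed copies at 97.0% and 99.75% identity, Cd63 one copy at 98.25% over 400 bases, Atp6v1f one copy at 99.4% over 156 bases and Map1lc3b 3 copies at 99.4% over 175 bases, and their levels are uncertain to that extent. Grn shares stretches of 75 to 103 bases there, at 95% identity or more, with transcripts of 42 other genes. Map1lc3b shares stretches of 108 to 175 bases by the same rule with transcripts of 58 other genes, its 3 copies among them. Lamp1 overlaps the antisense gene Grtp1, which had 15 counts, and Sqstm1 overlaps Mrnip, which had 58. Grn overlaps the antisense gene Fam171a2 over 68 bases, which had 163 counts, and Map1lc3b overlaps Zcchc14 over 58 bases, which had 108. Npc1 overlaps Rmc1, which had 16 counts, and Atp6v1h overlaps Rgs20, which had 43. Without knowledge of strand use, reads of such pairs cannot be told apart.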

How the data were processed

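Gene expression was measured in 9 libraries of bead-isolated tumour cells, made with a QuantSeq 3′ kit and read as single reads, per the labels' protocols. The authors deposited raw read counts for each gene and library. The submitters' processing notes name GRCm38 (mm10) as the genome and featureCounts, STAR and Trim Galore as tools; versions, strand setting, multi-mapping reads and molecular identifiers are not given in the sources used here. Without such identifiers, PCR copies count as reads, so the floor of 3 counts covers counting error only. The file's gene coordinates differ from those of a GRCm38 annotation, so none are printed from it.

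The counts were tested with edgeR 4.0.16 (R 4.3.3): filterByExpr by group with a minimum count of 10, library sizes recomputed over the 9009 tested genes, TMM, a one-way quasi-likelihood fit (robust) of the 9 libraries (residual degrees of freedom 6), and Benjamini-Hochberg adjustment over all tested genes at 0.05. The biological coefficient of variation was 40.5%. SEs were derived from the F statistic. CPM are TMM-scaled. The script was tested on simulated data with known changes. Alternatives were DESeq2 1.42.0, other scaling and filters, a replicate block and each library left out in turn. Shared sequence was searched with BLAST 2.17.0 in GENCODE M21 transcripts, at 95% identity over at least 75 bases.

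The genes, the pathway and marker lists and the tests were chosen with earlier results of these data known. Values per library are given for genes past the threshold in any comparison, for the 2 with the smallest p in each role, and for the most abundant in each role; other pathway genes are named if past the threshold. Other genes named beyond that rule were chosen after their values were seen. The labels say the replicates are biological; no 2 libraries of a group agreed within counting noise. Libraries sharing a replicate number were not treated as pairs.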

Additional observations from a re-analysis of the deposited data

How the results depend on the processing

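The median log2 fold change of the 39 tested genes kept its sign in all 18 alternatives: 0.43 to 0.59 for restricted against aged ad libitum, -0.33 to -0.14 for aged ad libitum against young, and 0.27 to 0.46 for restricted against young. Counts of calls moved. For restricted against aged ad libitum, calls over all genes (85) were 159 with DESeq2, 50 with library totals in place of TMM, 224 without a filter, 43 with only the compared groups and 133 with a replicate block, and the 4 lysosome and autophagy genes called became 2 with RLE factors and 1 with library totals, only the compared groups or robust = FALSE; the 1 further pathway gene became 2 with DESeq2, without a filter, at 30 counts in total, without mitochondrially encoded genes and with the block. For aged ad libitum against young, calls over all genes (26) were 91 with DESeq2, 126 without a filter, 58 with only the compared groups and 49 with the block, and 1 listed gene was called with DESeq2, at 30 counts in total, without mitochondrially encoded genes, with only the compared groups and with the block, and 2 without a filter, against 0. For restricted against young, calls (175) were 286 without a filter and 117 with library totals, and the listed gene called, Lamp1, was lost with library totals or robust = FALSE, leaving 0. The share of calls that were higher, 50% for aged ad libitum against young, was 63.2% with library totals and 61.8% with DESeq2, and for restricted against young 57.1% became 69.2% with library totals. Other settings lowered the share for aged ad libitum against young, to 42.4% at 30 counts in total and 44.1% without mitochondrially encoded genes, and left-out libraries gave 0% (of 2 calls) to 64.7%.

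Leaving out 1 library at a time gave 35 to 157, 2 to 91 and 98 to 242 calls over all genes in the 3 comparisons (restricted against aged ad libitum, aged ad libitum against young, restricted against young), 0 to 6, 0 to 1 and 0 to 2 listed genes, and 0 to 3, 0 to 1 and 1 to 3 further pathway genes. Signs reversed for genes with differences near 0: Lamp1 in aged ad libitum against young was 0.0076 with library totals and -0.25 to 0.087 over left-out libraries; over the same fits Atp6v1d was -0.11 to 0.47 and Sqstm1 -0.23 to 0.076 between the aged groups, and Psap -0.33 to 0.18 in restricted against young. The cause was not tested. Same-numbered libraries deviated together slightly more than others (r -0.03 to 0.08, 7 of 9 pairs positive, against -0.08 to 0.05, 6 of 18 other pairs positive). No pair reached a correlation of 0.1, but a library's closest one in another group had its own number in 13 of 18 cases. The main fit left the numbers out because the labels do not say what a shared number means. Whether libraries of the same number share an effect was not tested. With the replicate block, 4, 1 and 1 listed genes were called in the 3 comparisons. Genes with few counts had wide errors between the aged groups, with SEs on the log2 scale of 1.06 for Ulk1 (97 counts over the 9 libraries), 0.99 for Mcoln1 (81) and 1.37 for Tfeb (46), which limits what could be detected.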
